A study of Mus musculus with 12 samples.

Results

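The genes described here are 33 transcripts that mark the cells of brain blood vessels, of 24411 gene symbols in the count table. They were chosen by name: 22 are made chiefly by endothelial cells (Cldn5, Pecam1, Cdh5, Flt1, Kdr, Tek, Tie1, Slco1a4, Slc2a1, Abcb1a, Abcg2, Ly6c1, Ly6a, Esam, Emcn, Vwf, Mfsd2a, Itm2a, Egfl7, Eng, Ptprb and Nostrin). The other 11 are made chiefly by mural cells (Pdgfrb, Rgs5, Vtn, Kcnj8, Abcc9, Acta2, Tagln, Myh11, Anpep, Notch3 and Higd1b). No listed symbol was absent, and all 33 passed the filter on low counts that left 15199 genes for testing.

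Endothelial cells line the vessels of the brain and form the blood-brain barrier, in which claudin and cadherin junctions seal the gaps between cells and transporters carry glucose, lipids and drugs across them. Mural cells wrap the endothelium: pericytes lie on capillaries and depend on platelet-derived growth factor signalling through Pdgfrb, and smooth muscle cells with a contractile apparatus surround arteries and arterioles. Larger vessels of both kinds also run in the meninges, over the surface of the cortex.

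The tissue was medial prefrontal cortex, taken from females between 8 and 12 weeks old, and the mice were of 2 genotypes on a C57BL/6J background: wild type (WT), bought from a breeder, and knockout (KO) of the calcium channel Cav3.1, encoded by Cacna1g, from a bioresource centre. Each genotype was left without stress or given chronic stress, a daily forced swim or tail suspension test over 5 days. Each of the 4 resulting groups, WT and KO with and without stress, has 3 libraries. Whether these stem from different animals is not stated, so that p-values reflect only how much libraries vary, and genotype cannot be told apart from the source of the mice.

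The libraries held 15469590 to 31082240 estimated counts. Levels are given in CPM, counts relative to the scaled library size, and a count of 3 corresponds to between 0.092 and 0.192 CPM. Cacna1g stood between 109.4 and 144.1 CPM in the 6 WT libraries and between 54.6 and 65.95 CPM in the 6 KO libraries. Markers of cortical excitatory neurons were present in every library, at a summed 2175 to 3881 CPM over 8 genes. Unstressed WT libraries 1 and 2 stood apart from the others: 8 olfactory bulb markers summed to 953.5 and 1015 CPM there, and to between 25.97 and 128.5 CPM in the other 10. The 15 markers of meningeal and perivascular fibroblasts summed to 331.8 and 391.6 CPM in these 2 libraries and to between 66.6 and 164.8 CPM in the others.

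Promoter sequences are shown for Acta2 (smooth muscle actin) and Cldn5 (claudin-5, the main sealing protein of the barrier), because Acta2 is a contractile gene with a wide range over the libraries and Cldn5 is the barrier junction gene whose level is described first. They are RefSeq windows on GRCm38.p6 that run from 250 bases before the transcription start to 50 after it, and 23 of the 33 genes have at least 1 such window in the table. Capitals mark matches to the CArG box, the binding motif of serum response factor, a regulator of contractile genes, with up to 1 of its 10 letters off. Acta2 lies on the minus strand of chromosome 19, with its window at chr19:34255324-34255623. Cldn5 lies on the plus strand of chromosome 16, with its window at chr16:18776597-18776896.
Acta2: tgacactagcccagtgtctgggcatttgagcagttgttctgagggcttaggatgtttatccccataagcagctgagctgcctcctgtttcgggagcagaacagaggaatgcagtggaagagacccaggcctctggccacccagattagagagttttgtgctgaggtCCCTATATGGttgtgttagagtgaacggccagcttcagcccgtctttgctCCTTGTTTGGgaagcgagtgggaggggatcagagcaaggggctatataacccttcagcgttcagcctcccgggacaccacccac
Cldn5: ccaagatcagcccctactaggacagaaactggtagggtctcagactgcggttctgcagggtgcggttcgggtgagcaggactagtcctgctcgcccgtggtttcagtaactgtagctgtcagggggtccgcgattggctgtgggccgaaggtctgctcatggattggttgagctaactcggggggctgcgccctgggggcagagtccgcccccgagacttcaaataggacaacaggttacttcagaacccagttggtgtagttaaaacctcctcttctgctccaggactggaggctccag
The Acta2 window holds 2 such matches, each with 1 letter off, and the Cldn5 window holds 0. At least 2 matches of this kind occur in 3.7% of the 32851 RefSeq promoter windows, and in 1 of the 28 windows of the listed genes, that of Acta2. At least 1 match occurs in 21.1% of all windows and in 8 of the 28. A match describes the letters and not a bound site.

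Most of the 33 genes moved together from library to library. Unstressed WT library 2 held the highest level of 17 of them, and stressed WT library 1 the lowest of 18. Stressed WT library 1 lay below every unstressed WT library for 30 of 33 genes and stressed WT library 2 for 27, but stressed WT library 3 for 7. Library 3 exceeded both other stressed WT libraries for 32 of 33 genes, with a median ratio of 1.5 to their mean, so the spread within stressed WT was wide. Among KO libraries, between 15 and 29 of the 33 genes lay below every unstressed WT library. These counts are not given for all genes, so the pattern is not shown to be particular to the 33. In bulk tissue, fewer vascular cells and less RNA per vascular cell cannot be told apart.

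**Figure D1:**
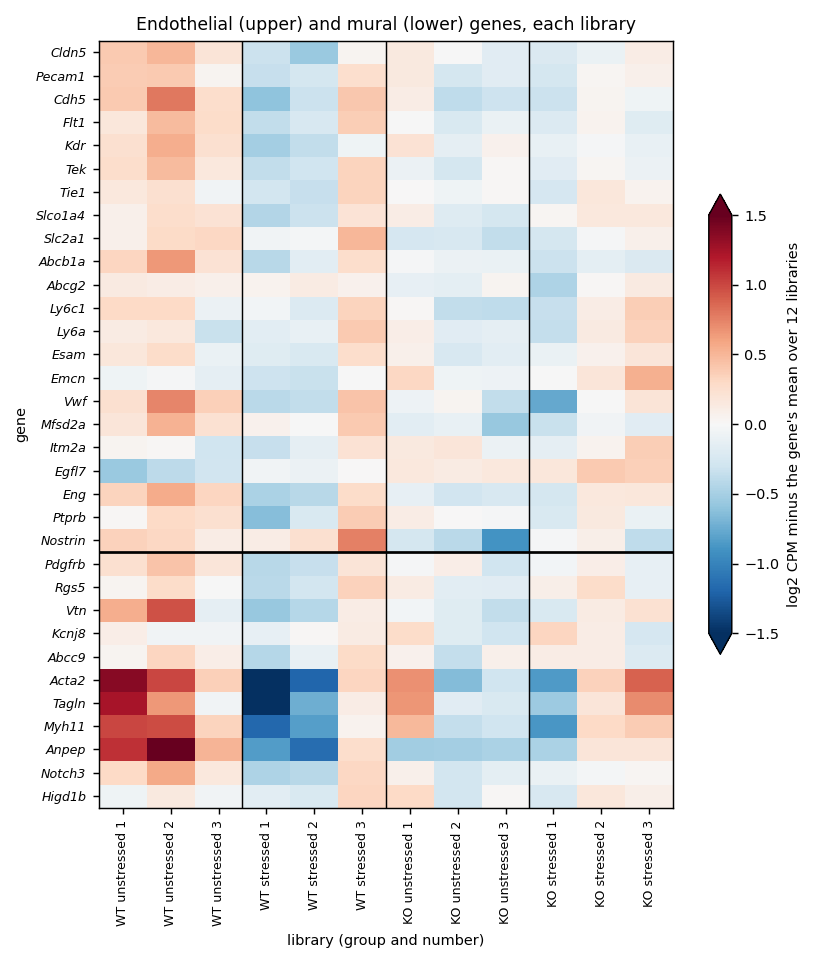
Level of each endothelial gene (above the thick line) and mural gene (below it) in each of the 12 libraries, as log2 CPM minus the gene's mean over the libraries (colour scale, ending at ±1.5). Unstressed WT libraries and stressed WT library 3 are mostly red, stressed WT libraries 1 and 2 mostly blue, Acta2, Tagln, Myh11 and Anpep span the widest range, and Egfl7 runs the other way.

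The first comparison was stressed against unstressed WT. Of the 33 genes, 7 fell and 1 rose by the quasi-likelihood test of edgeR, adjusted after Benjamini and Hochberg over all genes tested, and 25 did not pass. Among all genes tested, 21.9% were called in this comparison, 12.1% lower and 9.71% higher, against 24.2%, 21.2% and 3.03% of the 33. Over both directions, the share of vascular genes called was thus near that of all genes. By direction, a larger share fell and a smaller share rose than among all genes. Stressed libraries lay wholly below unstressed ones for 6 of the 33 and wholly above for 1, which is 18.2% and 3.03%, against 17.2% and 19.4% of all genes. The genes that fell were Cldn5, Kdr, Abcb1a and Eng among the endothelial ones and Vtn, Myh11 and Anpep among the mural ones, and Egfl7 rose. The median log2 fold change was -0.23 over the 22 endothelial genes and -0.49 over the 11 mural genes, beside 0.00 over all genes tested, with a negative sign for 18 of 22 and 10 of 11.

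Among junction and adhesion genes, Cldn5 was at 38.6, 41.8 and 33.7 CPM in libraries 1 to 3 of unstressed WT and at 23.5, 19.9 and 30.3 CPM in the stressed ones. The groups did not overlap, and stressed library 3 came closest to the unstressed level. The log2 fold change was -0.63 ± 0.15 (SE, n = 3 per group, edgeR adjusted p = 0.0181). Cdh5, the cadherin of endothelial junctions, had a log2 fold change of -0.61 ± 0.24 and did not pass (adjusted p = 0.0858). Pecam1, an adhesion molecule of the endothelial surface, stood at 21.5, 21.7 and 17.0 CPM without stress and at 12.95, 13.7 and 19.6 CPM with it. Its groups overlapped through stressed library 3 (log2 -0.38 ± 0.17, adjusted p = 0.129). Esam and Emcn, further surface molecules, had log2 fold changes of -0.16 ± 0.15 and -0.14 ± 0.17 and did not pass.

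Among growth factor receptors, Kdr, the main signalling receptor for vascular endothelial growth factor, stood at 16.8, 20.7 and 16.7 CPM in unstressed WT and 9.97, 11.0 and 13.6 CPM in stressed WT. All stressed libraries were below all unstressed ones (log2 -0.65 ± 0.13, SE, edgeR adjusted p = 0.0136). Eng, a co-receptor for transforming growth factor beta, stood at 24.1, 28.0 and 23.9 CPM and then at 13.7, 14.3 and 23.1 CPM. Its groups were also apart, by less than 1 CPM at stressed library 3 (log2 -0.57 ± 0.18, adjusted p = 0.0448). Flt1, Tek, Tie1 and the phosphatase Ptprb, which acts on Tek, had log2 fold changes between -0.38 and -0.18 and did not pass. Eng overlaps Fpgs on the opposite strand, and Fpgs stood at 4.85 to 6.09 CPM in the WT libraries (log2 -0.13 ± 0.16, adjusted p = 0.557).

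Transporters of the barrier differed in size of change. Abcb1a, the efflux pump P-glycoprotein, stood at 36.5, 46.0 and 33.9 CPM in unstressed WT and at 21.8, 26.2 and 35.2 CPM in stressed WT, so library 3 with stress lay above library 3 without it. It fell by 0.48 ± 0.15 on the log2 scale (edgeR adjusted p = 0.0446), an uncertain value because its estimated counts carry decimals in 12 libraries. Slc2a1, the glucose transporter GLUT1, stood at 71.5, 82.9 and 84.4 CPM and at 65.6, 66.7 and 95.8 CPM. Its groups overlapped, and the log2 fold change was -0.07 ± 0.14 (adjusted p = 0.759). Mfsd2a, which carries lipids containing docosahexaenoic acid, stood at 21.5, 27.3 and 22.05 CPM and at 19.8, 18.8 and 24.8 CPM (log2 -0.16 ± 0.15, adjusted p = 0.454). The efflux pump Abcg2 had a log2 fold change of -0.03 ± 0.13, and the organic anion transporter Slco1a4, also with counts split between similar sequences, -0.35 ± 0.15, and neither passed.

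Among the remaining endothelial genes, Vwf, the clotting factor carrier made mostly in larger vessels, stood at 15.4, 21.7 and 16.8 CPM in unstressed WT and at 9.81, 10.1 and 17.6 CPM in stressed WT (log2 -0.52 ± 0.26, SE, edgeR adjusted p = 0.166). Ly6c1, Ly6a, Itm2a and Nostrin had log2 fold changes between -0.14 and 0.15 and did not pass. Egfl7, a matrix protein secreted by endothelial cells whose gene hosts the microRNA miR-126, stood at 15.7, 17.6 and 19.0 CPM in unstressed WT and at 22.3, 21.8 and 23.3 CPM in stressed WT. Every stressed library was above every unstressed one, the reverse of Cldn5 and Kdr (log2 0.37 ± 0.09, adjusted p = 0.0184). Egfl7 lies on chromosome 2 at 26580014 to 26593120 on the plus strand (GRCm38) and overlaps Agpat2 on the minus strand. Agpat2 stood at 0.757, 0.889 and 0.497 CPM in unstressed WT and 0.2815, 0.728 and 0.6825 CPM in stressed WT, far below Egfl7 in counts per library.

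Among mural genes, Anpep, a surface peptidase of pericytes that fibroblasts also make, stood at 6.99, 10.9 and 4.60 CPM in unstressed WT and 1.77, 1.41 and 3.89 CPM in stressed WT. The groups did not overlap (log2 -1.65 ± 0.37, SE, edgeR adjusted p = 0.0166). Vtn, vitronectin, a matrix protein of pericytes, stood at 66.9, 88.8 and 41.7 CPM and at 30.8, 34.1 and 49.5 CPM. Its groups overlapped, with stressed library 3 above unstressed library 3, and it fell by 0.79 ± 0.25 (adjusted p = 0.0417). Pdgfrb stood at 28.4, 32.25 and 27.2 CPM and at 17.9, 18.8 and 27.5 CPM (log2 -0.45 ± 0.16, adjusted p = 0.0561). Notch3, a receptor of mural cells, was at -0.49 ± 0.19 (adjusted p = 0.0808). Rgs5, a regulator of G protein signalling enriched in pericytes, stood at 37.9, 44.8 and 36.7 CPM and at 27.9, 30.4 and 46.85 CPM (log2 -0.18 ± 0.18, adjusted p = 0.474). Kcnj8, the pore of the pericyte potassium channel gated by ATP, stood between 2.33 and 2.76 CPM in all 6 WT libraries (log2 0.01 ± 0.20, adjusted p = 0.977). Its partner subunit Abcc9 and the pericyte marker Higd1b were at -0.21 ± 0.18 and -0.01 ± 0.23 and did not pass.

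The 3 genes of the contractile apparatus varied widely, as did Anpep. Acta2 stood at 31.04, 24.0 and 15.4 CPM in unstressed WT and at 2.98, 5.18 and 15.0 CPM in stressed WT. Stressed libraries 1 and 2 were the lowest of all 12, while stressed library 3 came within 1 CPM of unstressed library 3 (log2 -1.59 ± 0.57, SE, edgeR adjusted p = 0.0633). Tagln, the actin-binding protein transgelin, stood at 16.9, 11.25 and 6.86 CPM and at 1.97, 4.24 and 7.68 CPM, with overlap (log2 -1.32 ± 0.47, adjusted p = 0.0633). Myh11, the myosin heavy chain of smooth muscle, stood at 22.5, 22.2 and 14.2 CPM and at 4.91, 6.29 and 11.6 CPM. It was the member of this trio that passed, without overlap (log2 -1.36 ± 0.38, adjusted p = 0.0287). Relative to the endothelial genes of the same library, the mean log2 level of the trio was 1.03, 0.54 and 0.13 above its average in unstressed WT and -1.38, -0.71 and -0.12 from it in stressed WT. The mean of the other 8 mural genes stayed within 0.21 of the endothelial genes on this scale in all 12 libraries. That mean hides differences between its genes. Anpep was at 0.93, 1.39 and 0.42 in unstressed WT and at -0.56, -0.93 and -0.01 in stressed WT. Vtn was at 0.38, 0.61 and -0.23 in unstressed WT and at -0.29, -0.21 and -0.17 in stressed WT. Kcnj8 ran from -0.39 in unstressed WT library 2 to 0.55 in stressed KO library 1. Tagln overlaps Pcsk7 on the opposite strand, which fell by 0.36 ± 0.09 (adjusted p = 0.0234).

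**Figure D2:**
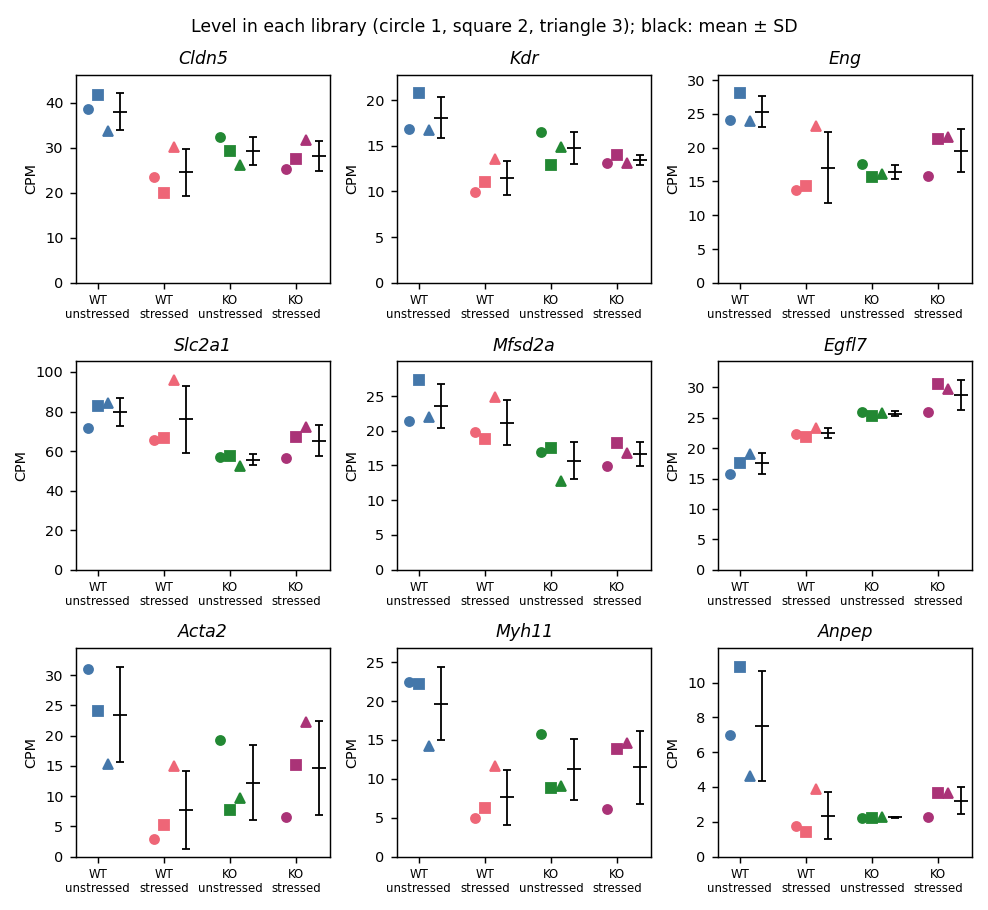
Level in CPM (vertical axis, from 0) of 9 vascular genes in each library of the 4 groups (circle, square and triangle: libraries 1, 2 and 3), with the group mean ± SD in black (n = 3). Cldn5, Kdr, Eng, Acta2, Myh11 and Anpep are highest in unstressed WT, while Egfl7 lies between 15.7 and 19.0 CPM there and between 26.0 and 30.5 CPM in stressed KO.

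These calls depended on a few libraries. Leaving out 1 library at a time, the number of endothelial genes called was 0 without unstressed WT library 2 or stressed WT library 2, 1 without unstressed WT library 1, and 7 and 10 without unstressed and stressed WT library 3. It was 4 without stressed KO library 1 and 3 without stressed WT library 1 or any of the other 5 KO libraries, which enter through the shared spread. For mural genes the number was 0 without unstressed or stressed WT library 2, 1 without unstressed or stressed WT library 1, 7 without unstressed or stressed WT library 3, 4 without stressed KO library 1, 3 without unstressed KO library 3 and 2 without any of the other 4 KO libraries. Shares over all genes moved too. Without unstressed WT library 3, edgeR called 42.4% of the 33 genes and 36.6% of all genes, and without unstressed WT library 1 it called 6.06% and 6.33%. Without stressed WT library 3 it called 51.5% of the 33 against 10.8% of all genes. Without either library 2 of WT it called 0 of all genes. Over the other 7 libraries left out in turn, it called 12.1% to 24.2% of the 33 and 13% to 22.2% of all genes. Without unstressed WT libraries 1 and 2 together, edgeR called 0 of the 33 (3 at an unadjusted p under 0.05) and 0 of all genes. The signs were then negative for 14 of 22 endothelial genes, with a median of -0.14, and for 9 of 11 mural genes, with a median of -0.30. The lowest values in that fit were those of Acta2 (-0.97), Anpep (-0.95), Myh11 (-0.89), Tagln (-0.55) and Kdr (-0.54), against a single unstressed WT library whose spread is assumed to be that of the other groups. Vtn stood at -0.13, Abcb1a at -0.29 and Egfl7 at 0.24.

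Other genes of the vessel wall were read from lists set by role, beside 12.1% lower and 9.71% higher among all genes tested. Of 24 further endothelial identity genes, 0 rose and 2 (8.33%) fell with stress in WT, Ctla2a (log2 -0.88 ± 0.21, SE) and Cd93, a surface lectin (-0.75 ± 0.22), with a list median of -0.25. Sox18, a transcription factor of the endothelium (-0.53 ± 0.18), and Cd34 (0.51 ± 0.17) did not pass. Of 20 further genes of barrier junctions and transport, 0 rose and 3 (15%) fell: the junction genes Jam2 (-1.13 ± 0.26) and Tjp1 (-0.28 ± 0.07), and the anion transporter Slc22a8 (-0.97 ± 0.32). Of 9 arterial genes, Sema3g (-0.53 ± 0.16) was the 1 that fell (11.1%), and of 7 tested venous and activation genes, Nr2f2 (-1.36 ± 0.30), a transcription factor of veins, was the 1 that fell (14.3%). The shares of these 4 lists were near or below that of all genes. Nr2f2 is also made by neurons. Values of bulk tissue do not show in which cells the other listed genes changed.

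Of 25 tested ligands and receptors of vascular signalling, 1 rose (4%) and 6 fell (24%) with stress in WT. Apln, a peptide ligand of angiogenic endothelium, rose by 0.77 ± 0.14 on the log2 scale (SE). Wnt7a (-1.03 ± 0.27), the barrier-inducing Wnt ligand of neural cells, fell, as did Reck (-0.67 ± 0.18), a cofactor of its receptor, and Lrp5 (-0.72 ± 0.19), a Wnt co-receptor. The other 3 that fell had log2 fold changes between -2.50 and -0.64. Of 17 further pericyte genes, 5 (29.4%) fell, among them Heyl, a target of Notch signalling (-1.75 ± 0.36), and the transcription factors Foxf2 (-0.85 ± 0.21) and Tbx18 (-1.25 ± 0.35), with a list median of -0.42. Of 14 tested smooth muscle genes, 7 (50%) fell, among them Lmod1, an actin nucleator of muscle (-1.96 ± 0.51), and Mylk, myosin light chain kinase (-0.51 ± 0.16). That list's median was -0.90, and no pericyte or smooth muscle gene of these lists rose. Without unstressed WT libraries 1 and 2, no gene of any list passed.

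Markers of several other cell types moved in the same libraries. With stress in WT, 12.1% of all genes tested were called lower and 9.71% higher. Of the 15 fibroblast markers, 13 fell with stress in WT, with a median log2 fold change of -2.002, and their summed level was 164.8 to 391.6 CPM in unstressed WT, 66.6 to 125.6 CPM in stressed WT, 77.4 to 147.7 CPM in unstressed KO and 69.0 to 148.0 CPM in stressed KO. None of these markers was at 0 in every library of a group. Their score, the mean log2 level centred on the average library, was 1.62, 1.88 and 0.51 for unstressed WT libraries 1 to 3 and -0.96, -0.98 and -0.11 for the stressed ones. On the same scale the endothelial genes were at 0.17, 0.34 and 0.09 and at -0.28, -0.21 and 0.28, and Acta2, Tagln and Myh11 at 1.20, 0.88 and 0.21 and at -1.66, -0.92 and 0.16. With the fibroblast score as a covariate, edgeR called 0 of the 33 genes and 0 of all genes in stressed against unstressed WT. The score itself did not overlap between these groups, so the covariate and the contrast can be told apart only in part. In that fit the endothelial median turned to 0.21 and the mural median was -0.01, while Egfl7 stood at 0.41 and Kdr at -0.43. The sign turned for 17 of the 33 genes, among them Acta2 (0.13), Tagln (0.20) and Vtn (0.22), and Myh11 was at -0.01. Perivascular macrophage markers fell for 2 of 7, from a summed 13.15 to 24.2 CPM to 5.47 to 11.3 CPM. Astrocyte markers fell for 5 of 10 and olfactory bulb markers for 8 of 8, while oligodendrocyte markers rose for 6 of 8, to a summed 1907, 2052 and 3316 CPM in stressed WT from 1294 to 1548 CPM. Microglia markers fell for 1 of 12, and excitatory neuron markers fell for 1 of 8 and rose for 1. Choroid plexus markers fell for 2 of 2 tested, and 0 of 5 tested red blood cell markers were called. The part of these other cells in the vascular values was not tested.

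**Figure D3:**
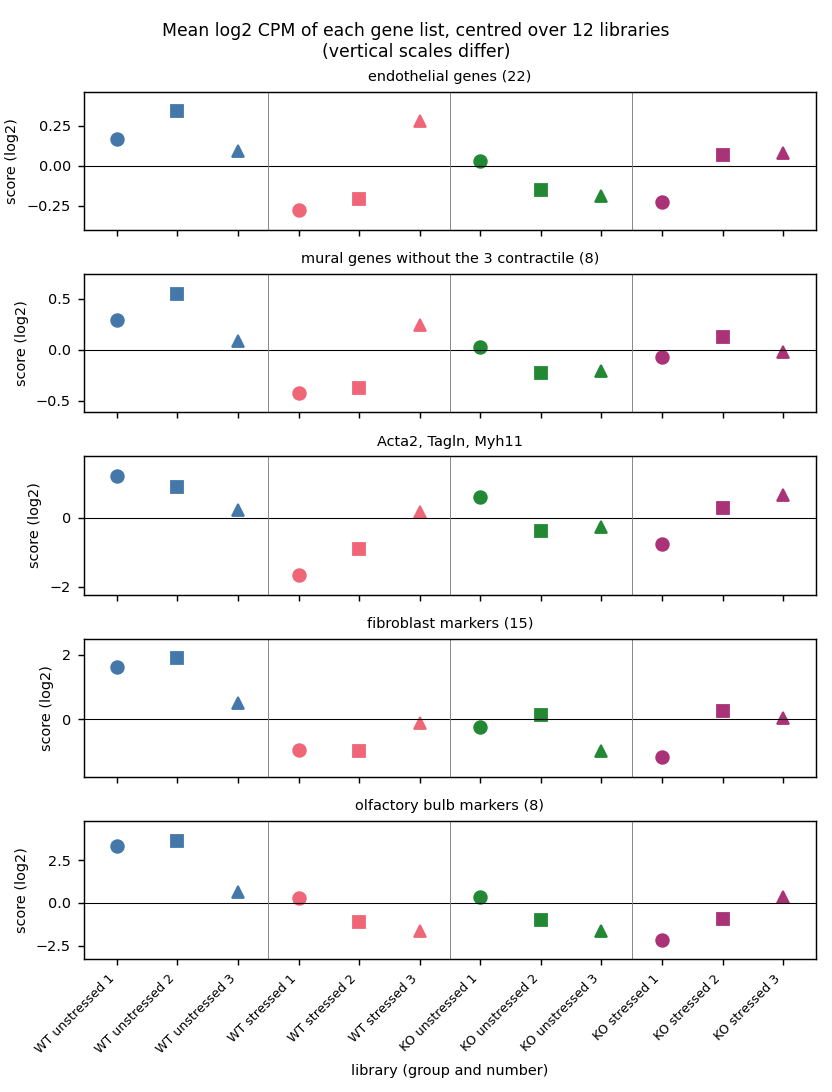
Mean log2 CPM of 5 gene lists in each library, centred over the 12 libraries (vertical axes differ between panels; symbols mark library numbers, colours the groups). Endothelial, mural and contractile genes are low in stressed WT libraries 1 and 2 and near the unstressed level in library 3, and the fibroblast score is highest, at 1.62 and 1.88, in unstressed WT libraries 1 and 2.

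The second comparison was unstressed KO against unstressed WT, which shares the unstressed WT libraries with the first. Of the 33 genes, 6 fell, 1 rose and 26 did not pass. This is 21.2% of them, against 23.2% of all genes tested, 12.1% lower and 11.2% higher. The genes that fell were Slc2a1, Abcb1a, Mfsd2a, Eng and Nostrin among the endothelial ones and Anpep among the mural ones, and Egfl7 rose. The KO libraries of 15 of the 33 genes lay wholly below the unstressed WT libraries, 45.5% against 18.0% of all genes tested, and wholly above for 1, against 18.5%. The median log2 fold change was -0.37 over the endothelial and -0.46 over the mural genes.

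Of the 5 barrier transporters among the 33 genes, 3 fell, beside 12.1% lower among all genes tested. Abcg2 (log2 -0.18 ± 0.13, SE) and Slco1a4 (-0.29 ± 0.15) did not pass. These 5 are grouped for description and are too few for a share to be read as a trait of transporters. Slc2a1 stood at 56.9, 57.4 and 52.5 CPM in unstressed KO, below all 6 WT libraries (log2 -0.52 ± 0.14 against unstressed WT, SE, edgeR adjusted p = 0.0247). Mfsd2a stood at 16.9, 17.5 and 12.7 CPM in unstressed KO, also below all 6 WT libraries (-0.59 ± 0.15, adjusted p = 0.0205). Abcb1a stood at 29.0, 27.5 and 27.3 CPM (-0.48 ± 0.16, adjusted p = 0.0450), with the uncertainty of its split counts. Nostrin, which regulates nitric oxide synthase trafficking, stood at 3.75, 3.65 and 3.18 CPM in unstressed WT and 2.44, 2.19 and 1.54 CPM in unstressed KO (-0.77 ± 0.22, adjusted p = 0.0317). Eng stood at 17.6, 15.6 and 16.1 CPM (-0.62 ± 0.18, adjusted p = 0.0327).

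Anpep stood at 2.21, 2.24 and 2.29 CPM in unstressed KO, a narrow range below the 4.60 to 10.9 CPM of unstressed WT (log2 -1.74 ± 0.38, SE, edgeR adjusted p = 0.0136). Egfl7 stood at 25.9, 25.3 and 25.85 CPM, above all 6 WT libraries (0.56 ± 0.09, adjusted p = 0.00665). Agpat2, which overlaps Egfl7, was at 0.11 ± 0.39 (adjusted p = 0.862). Cldn5 stood at 32.5, 29.25 and 26.1 CPM, below each unstressed WT library, and did not pass (-0.38 ± 0.15, adjusted p = 0.0812). The contractile trio overlapped between genotypes. Acta2 stood at 19.3, 7.62 and 9.71 CPM in unstressed KO (-0.94 ± 0.56, adjusted p = 0.232), Tagln at 11.3, 6.30 and 6.08 CPM (-0.56 ± 0.46) and Myh11 at 15.75, 8.76 and 9.12 CPM (-0.80 ± 0.37). Pcsk7, which overlaps Tagln, fell (-0.50 ± 0.09, edgeR adjusted p = 0.00999). Pdgfrb, at 23.75, 25.6 and 19.5 CPM, lay below each unstressed WT library (-0.35 ± 0.16, adjusted p = 0.118), and Rgs5 (-0.17 ± 0.18) and Kcnj8 (-0.04 ± 0.20) overlapped.

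Of the further endothelial identity genes, 4 of 24 (16.7%) fell in unstressed KO and 0 rose, against 12.1% and 11.2% of all genes tested. Among the 4 was Adgrl4, an adhesion receptor (log2 -0.49 ± 0.15, SE). Of the further barrier genes, 5 of 20 (25%) fell and 0 rose, among them the large neutral amino acid transporter Slc7a5 (-0.50 ± 0.11) and the lactate transporter Slc16a1 (-0.40 ± 0.13). Of 9 arterial genes, Gkn3 rose (1.05 ± 0.31) and Sema3g fell (-0.71 ± 0.16), 11.1% each. Of 25 vascular signalling genes, 5 (20%) fell and 1 (4%) rose, the last being Tspan12, a cofactor of the Norrin receptor (0.48 ± 0.13). Of 17 further pericyte genes, 3 (17.6%) fell, and of 14 smooth muscle genes, 2 (14.3%) fell, with medians of -0.54 and -0.61. Fibroblast markers fell for 11 of 15, with a median of -1.67.

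Without unstressed WT libraries 1 and 2, edgeR called 0 of the 33 genes in this comparison (4 at an unadjusted p under 0.05), and 0.116% of all genes. The genes called with all libraries were then at -0.60 (Slc2a1), -0.49 (Mfsd2a), -0.28 (Abcb1a), -0.54 (Eng), -0.62 (Nostrin), -1.035 (Anpep) and 0.43 (Egfl7). With the fibroblast score as a covariate, edgeR also called 0 of the 33, and 11 of all genes, with medians of 0.01 for endothelial and 0.16 for mural genes. The score did not overlap between unstressed KO and unstressed WT either, so covariate and contrast can be told apart only in part. The sign turned for 14 of the 33, among them Acta2 (0.67), Tagln (0.80), Myh11 (0.39) and Vtn (0.16), and Abcb1a was at -0.09. Leaving out single libraries, the endothelial count was 1 without unstressed WT library 2 or unstressed KO library 3, 2 without unstressed KO library 2, 3 without unstressed WT library 1 or unstressed KO library 1, 9 without unstressed WT library 3 and 10 without stressed WT library 3. The mural count was 0 without unstressed WT library 2 or unstressed KO library 2, 3 without unstressed WT library 3 and 4 without stressed WT library 3. The share of the 33 was 36.4% without unstressed WT library 3, against 37.3% of all genes, and 42.4% without stressed WT library 3, against 20.6%. For the other libraries just named it was 3.03% to 12.1% of the 33, against 1.53% to 15.7% of all genes.

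**Figure D4:**
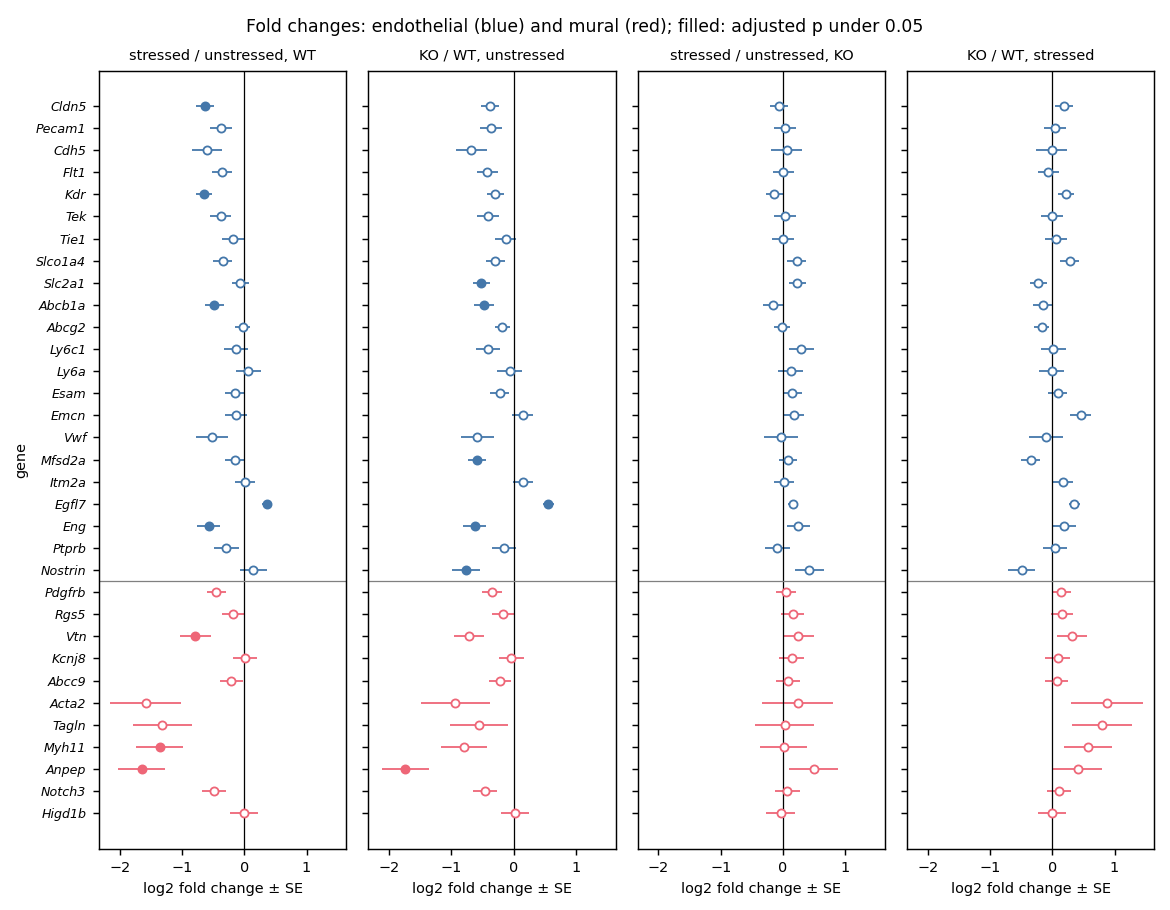
Log2 fold change ± SE (horizontal axes, from the edgeR fit of all 12 libraries) of each endothelial gene (blue) and mural gene (red) in 4 comparisons, with filled symbols for an adjusted p under 0.05. Filled symbols appear in the left pair of panels, which share the unstressed WT libraries, and none in the right pair.

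The third comparison was stressed against unstressed KO. EdgeR called 0 of the 33 genes, with 0 at an unadjusted p under 0.05, and DESeq2 also called 0; among all genes tested, edgeR called 0.0197%, 0.00658% higher and 0.0132% lower. Libraries did not overlap for 2 of the 33 in the higher direction (Egfl7 and Anpep) and 1 in the lower (Abcb1a), against 8.45% of all genes in each direction. The median log2 fold change was 0.05 over the endothelial and 0.08 over the mural genes, with positive signs for 26 of 33. The 95% interval of the log2 fold change lay between -1 and 1 for 30 of the 33, so changes beyond 2-fold were outside it, and the exceptions were Acta2, Tagln and Anpep. The smallest p among endothelial genes belonged to Egfl7 (0.16 ± 0.09, SE, adjusted p = 0.601), Nostrin (0.42 ± 0.23, adjusted p = 0.610) and Slc2a1 (0.23 ± 0.14, adjusted p = 0.641). Among mural genes they belonged to Anpep (0.50 ± 0.40, adjusted p = 0.732), Vtn (0.25 ± 0.25, adjusted p = 0.797) and Rgs5 (0.15 ± 0.18, adjusted p = 0.833).

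Within stressed KO, library 1 was low for several genes. Acta2 stood at 6.58, 15.2 and 22.2 CPM in stressed KO libraries 1 to 3, Tagln at 4.84, 8.10 and 11.7 CPM and Myh11 at 6.09, 13.8 and 14.6 CPM. These ranges covered most of those of unstressed KO, and log2 fold changes were 0.23 ± 0.57, 0.03 ± 0.47 and 0.01 ± 0.38 (SE). Vwf, at 7.66, 12.97 and 14.9 CPM, was also lowest in library 1, and Cldn5 stood at 25.3, 27.5 and 31.8 CPM. Fibroblast markers summed to 69.0, 148.0 and 130.5 CPM in the same libraries, and red blood cell markers to 92.8, 127.4 and 115.4 CPM. Other lists were highest in library 1: oligodendrocyte markers summed to 2741, 1293 and 1227 CPM, and choroid plexus markers to 9.54, 3.52 and 3.97 CPM.

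The fourth comparison was stressed KO against stressed WT. EdgeR called 0 of the 33 genes, with 4 at an unadjusted p under 0.05, and DESeq2 called 1; among all genes tested, edgeR called 0.250%, 0.0855% higher and 0.164% lower. Libraries did not overlap for Egfl7, higher in KO, and for Mfsd2a and Nostrin, lower in KO, against 10.8% and 11.3% of all genes. The 4 were endothelial: Egfl7 (log2 0.35 ± 0.09, SE, adjusted p = 0.116), Emcn (0.45 ± 0.17, adjusted p = 0.291), Mfsd2a (-0.35 ± 0.15, adjusted p = 0.356) and Nostrin (-0.49 ± 0.22, adjusted p = 0.374). Egfl7 stood at 26.0, 30.5 and 29.8 CPM in stressed KO, above every WT library. Mfsd2a stood at 14.9, 18.3 and 16.8 CPM in stressed KO, below every WT library. Nostrin stood at 3.18, 3.47 and 5.02 CPM in stressed WT and 2.89, 3.13 and 2.24 CPM in stressed KO. Slc2a1 stood at 56.7, 67.35 and 72.0 CPM and overlapped with stressed WT (-0.22 ± 0.14, adjusted p = 0.543). The contractile trio had values of 0.88 ± 0.58 (Acta2), 0.79 ± 0.48 (Tagln) and 0.57 ± 0.39 (Myh11), all overlapping, beside the low stressed WT libraries 1 and 2.

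The difference between the genotypes in their response to stress was tested as an interaction, stress in KO minus stress in WT. EdgeR called 0 of the 33 genes and 0% of all genes tested, with 9 of the 33 and 4330 of all 15199 genes at an unadjusted p under 0.05. DESeq2 called 3 of the 33, Eng, Anpep and Vtn, beside 1885 of all genes. The smallest p values were those of Eng (log2 0.81 ± 0.26, SE, edgeR adjusted p = 0.0838), Kdr (0.51 ± 0.19, adjusted p = 0.110) and Cldn5 (0.57 ± 0.21, adjusted p = 0.110) among endothelial genes. Among mural genes they were those of Anpep (2.15 ± 0.54, adjusted p = 0.0583), Vtn (1.03 ± 0.35, adjusted p = 0.0918) and Myh11 (1.37 ± 0.53, adjusted p = 0.122). Signs were positive for 31 of 33 genes. Egfl7, at -0.21 ± 0.12 (adjusted p = 0.280), was one of 2 with a negative sign. With 0 genes called, edgeR did not show a different response of any of the 33 genes in KO. Without unstressed WT library 3 it called 2 endothelial and 3 mural genes, which is 15.2% of the 33 against 25% of all genes in that fit. Without any of the other 11 libraries it called 0 of the 33.

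The libraries of Egfl7 did not overlap between any of the 4 groups, in an order read from these data. Its means were 17.5 ± 1.66 CPM (SD, n = 3) in unstressed WT, 22.5 ± 0.769 in stressed WT, 25.7 ± 0.355 in unstressed KO and 28.75 ± 2.40 in stressed KO, and the libraries of these 4 groups did not overlap with those of the next group in this order. The last gap was narrow, with the highest unstressed KO library at 25.93 CPM and the lowest stressed KO library at 26.01 CPM. The share of all genes with some such order of the groups is not given. Of the neighbours in this order, stressed and unstressed WT passed the test, stressed and unstressed KO did not, and unstressed KO against stressed WT was not tested. Its log2 fold change ran from 0.24 to 0.43 for stress in WT and from 0.43 to 0.61 for KO against unstressed WT over 21 alternative analyses, of which 12 and 16 called it. A scaling to library size enters each of these values, and the other 21 endothelial genes had negative or smaller values in both comparisons.

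Levels were compared between genes only per kilobase of annotated exon sequence, as mean CPM over the 12 libraries. On that scale Itm2a (26.9), Vtn (23.6), Cldn5 (21.2) and Slc2a1 (19.7) were highest, and Vwf (0.845), Emcn (0.893), Anpep (0.925), Kcnj8 (1.005) and Abcc9 (1.03) lowest. The lengths join all annotated transcripts of a gene, so a gene with long rare transcripts is understated. The widest range over the libraries did not follow this order. Acta2 went from 2.98 to 31.04 CPM and Anpep from 1.41 to 10.9 CPM, while Abcg2 went from 12.9 to 19.6 CPM and Kcnj8 from 2.04 to 3.20 CPM.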

How the data were processed

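The kit used for the libraries keeps strand, per the labels' protocols. What the authors deposited is a table of estimated counts by gene symbol and library, without normalisation. The submitters' processing notes name build mm10 and the tools RSEM 1.3.1, STAR 2.7.9a, Trim Galore 0.6.6 and DESeq2 1.36.0. For annotation, filters and the strand setting of the counting, the answer is not given in the sources used here, so genes that overlap a listed gene are named. Genes with decimals in their estimated counts share reads with similar sequences; Abcb1a (12 libraries), Slco1a4 (10), Ly6c1 (9) and Ly6a (8) are uncertain for that reason.

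Estimated counts were rounded, filtered with filterByExpr (minimum count 10, minimum total 15) and scaled with TMM factors in edgeR 4.0.16 (R 4.3.3). All 12 libraries entered 1 quasi-likelihood fit with a mean for each of the 4 groups, from which 5 two-sided contrasts were taken, with Benjamini-Hochberg adjustment over 15199 genes and a threshold of 0.05. Scores use log2 CPM with a prior count of 2. With 3 libraries a group, 0.1 is the smallest p of an exact permutation test. The fit was tested on simulated data. Alternatives were DESeq2 1.42.0, its size factors, no filter, only the compared groups, a block for the replicate number, sva 3.50.0 with 1 surrogate variable, the 2 marker scores as covariates, and left-out libraries. Libraries of a group differed by a chi-square per degree of freedom of 4.87 to 68.6, so none was counted as a duplicate. The genes and lists were chosen with earlier results of these data known. In each comparison the genes that pass are named, with up to 3 of the smallest p per cell type where fewer pass; single-library values were set for 12 genes and for the 4 others with the smallest p (Egfl7, Kdr, Anpep and Eng), and those of Vtn and Nostrin were added after their values were seen. Of each further list, up to 4 genes with the smallest p are named. Positions are from GENCODE M21 on GRCm38.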

Additional observations from a re-analysis of the deposited data

How the results depend on the processing

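Calls in stressed against unstressed WT and in unstressed KO against unstressed WT rested on the model and on single libraries. Besides those of unstressed WT, these included stressed WT library 2 for the first comparison and unstressed KO libraries 2 and 3 for the second. With the olfactory bulb score or the meningeal fibroblast score as a covariate, 1 surrogate variable, only the groups compared, or without unstressed WT libraries 1 and 2, 0 endothelial and 0 mural genes were called in either comparison. Of all genes, these settings called 0, 0, 0, 1 and 0 for stress in WT and 14, 11, 21, 18 and 18 for genotype without stress. DESeq2 called 5 mural genes for stress in WT and 2 for genotype without stress, beside 4030 and 4187 of all genes. The main fit called 3322 and 3529 of all genes. With no filter, 2 mural genes were called for genotype without stress, beside 3253 of all genes. For genotype with stress, DESeq2 called 1 endothelial gene and 299 of all genes, beside 71 with the olfactory bulb score, 160 with 1 surrogate variable and 82 without unstressed WT libraries 1 and 2. For the interaction, DESeq2 called 1 endothelial and 2 mural genes and 1885 of all genes, its size factors 198, no filter 143 and the fibroblast score 2; only the groups compared was not run, since the interaction uses all 4. For stress in KO, all genes called were 46 with DESeq2 and 6 with the olfactory bulb score. With the fibroblast score, Vtn reversed to 0.22 for stress in WT, 0.16 for genotype without stress and -0.01 for the interaction, and Myh11 to -0.10 for the interaction. In all, 17 of the 33 genes turned sign with that score for stress in WT, Acta2 and Tagln included. For genotype without stress it was 14, among them Acta2, Tagln and Myh11. With the olfactory bulb score, 7 and 4 of the 33 turned sign. The olfactory bulb score was 0.62 to 3.62 in unstressed WT, at most 0.29 in stressed WT and at most 0.32 in unstressed KO. For this score too, covariate and contrast can be told apart only in part. The cause of these turns was not tested.

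Leaving out 1 library at a time gave 0 to 10 endothelial and 0 to 7 mural genes for stress in WT, 1 to 10 and 0 to 4 for genotype without stress, 0 to 2 and 0 to 3 for the interaction, and 0 for the others. Of all genes it gave 0 to 5635, 234 to 5729 and 0 to 3851 in these 3, 1 to 5 for stress in KO and 19 to 116 for genotype with stress. With the replicate number as a block, 5 endothelial and 2 mural genes were called for stress in WT, beside 3007 of all genes. For genotype without stress it was 5 and 1, beside 3155 of all genes. Deviations of libraries with the same number correlated between -0.246 and 0.364, with 4 of 18 pairs over 0.1, and 5 of 12 libraries correlated best with their own number, so the numbers were not taken to pair the libraries. A count of 3 is 0.092 to 0.192 CPM, which limits the least abundant genes.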
